A study of Mus musculus with 8 samples.

Results

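The 10 genes described here are inositol phosphatases, kinases and receptors of inositol trisphosphate (IP3): Inpp5a, Itpka, Itpkb, Itpkc, Itpr1, Itpr2, Itpr3, Inpp1, Inpp4b and Impa1. They are 10 of the 42416 gene identifiers counted in each library, and 9 of the 14268 that held enough counts to be tested. They were chosen by family, with the KO and Control counts of these same libraries in view. The fold changes between the groups, and whether a gene passed the threshold, are therefore a description of these 10 genes and not an independent test of them.

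Bulk RNA was sequenced from dissected distal convoluted tubules of mice, the part of the nephron where the cotransporter blocked by thiazides takes up NaCl. The 4 Control libraries came from animals labelled Cnb1fl wt, NCCcre Tg/+, TOMATO Tg/+, and the 4 KO libraries from animals labelled Cnb1fl Tg/Tg with the same NCCcre and TOMATO transgenes. All 8 animals, the Controls included, had thus the Cre transgene named for the cotransporter of this segment, the Tomato reporter, and tamoxifen by oral gavage (for 5 days, 2 mg a day each), and each library was made from 1000 fragments taken 3 weeks after that. Cnb1 is another name of Ppp3r1, which encodes the regulatory subunit of the calcium-activated phosphatase calcineurin. Age and sex are not stated in the labels, and each library has its own animal number.

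IP3 is the soluble messenger that phospholipase C releases when a hormone or growth factor binds its receptor. It opens the IP3 receptors, which are calcium channels in the membrane of the endoplasmic reticulum, and the calcium that flows out activates, among others, calmodulin and calcineurin. The signal ends when IP3 is removed, either by a phosphatase of the Inpp5a kind or by an IP3 kinase, and further phosphatases return the products to free myo-inositol.

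Total counts lay between 18161442 and 45150953 per library, so that 1 CPM (the count scaled to TMM-adjusted library size) stood for 19.1 to 48.6 counts. The segment's defining transporter gene Slc12a3 was at 6783 ± 1045 CPM for Control and 5120 ± 1988 CPM for KO (SD, n = 4 each). The summed level of 12 distal convoluted tubule markers ranged from 22620 to 28000 CPM for Control and from 9500 to 14800 CPM for KO. Markers of the neighbouring thick ascending limb (6 genes) summed to 7499 to 12260 and 2779 to 5504 CPM. Those of the connecting tubule and collecting duct (7 genes) summed to 269 to 417 and 117 to 274 CPM. All 7 had a fold change below 0, as had 52.9% of all genes tested. Those of macrophages and leukocytes (9 genes) summed to 9.996 to 12.2 and 19.1 to 76.7 CPM. Umod made up most of the thick ascending limb sum, at 8812 ± 2056 CPM for Control and 3859 ± 978 CPM for KO. For each of the other 5 thick ascending limb genes the groups overlapped. No gene of these lists was at 0 in all libraries. Ppp3r1 itself was at 84.4 to 108 CPM in Control and 74.0 to 97.7 CPM in KO, its log2 fold change being -0.18 ± 0.13 (SE; adjusted p = 0.548 by edgeR QL). It does not separate the groups, and KO below means the libraries with that genotype label.

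Of the 10 genes, Inpp5a and Itpkb were lower in KO, Itpr3 was higher, 6 did not pass the threshold, and Itpka fell under the count filter. The threshold was an adjusted p under 0.05 in edgeR's quasi-likelihood test (QL) across all genes, which 2.21% of the 14268 genes tested passed in either direction. In 4 of the 9 tested genes (Inpp5a, Itpkb, Itpr3 and Inpp4b) the 4 KO libraries all lay on one side of the 4 Control libraries, against 9.44% of all genes tested. Since this contrast was in view when the genes were put together, neither count is read against its background. Expressed as levels, the changes fell on an IP3-removing phosphatase, the most abundant of the kinase genes Itpka, Itpkb and Itpkc, and the scarcest of the IP3 receptors. Itpr1 and Itpr2, the most abundant receptors, differed by less than the spread between libraries.

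Inpp5a encodes the membrane-attached phosphatase that takes a phosphate off IP3 and so ends its action. It lies on chromosome 7 (139389109 to 139579652, plus strand, GRCm38, ENSMUSG00000025477). Its level was 104, 96.6, 87.4 and 138 CPM across Control replicates 1 to 4 and 37.5, 34.1, 37.7 and 40.2 CPM across KO replicates 1 to 4. The groups lay far apart, with the lowest Control library above the highest KO library by more than the whole range of the KO libraries. The means were 107 ± 22.2 CPM for Control and 37.4 ± 2.49 CPM for KO (SD, n = 4 each). The log2 fold change was -1.51 ± 0.15 (SE), a level 2.85-fold lower in KO. The KO libraries agreed closely, with an SD of 0.09 on the log2(CPM + 1) scale against 0.28 in Control and a median of 0.18 over KO for all genes at 1 CPM or more.

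The fall of Inpp5a was the firmest of the 10. Its log2 fold change lay between -1.597 and -1.353 over 16 other settings of the analysis, and it passed the threshold in all 16 of them, the 8 fits that left out 1 library each among them. Its exons overlap those of Nkx6-2 on the opposite strand, a gene with 0 counts here. In bulk tubule RNA, fewer cells with a transcript and less transcript per cell cannot be told apart, which applies to each gene below. Of the 12 distal convoluted tubule markers, 6 (50%) fell in KO, while 2.21% of all genes passed in either direction. The other 6 did not pass the threshold, Slc12a3 among them. The fold change was below 0 in 11 of the 12 (91.7%, against 52.9% of all genes). In 9 (75%) the groups did not overlap, against 9.44% of all genes. The part of this in the fall of Inpp5a was not tested.

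**Figure D1:**
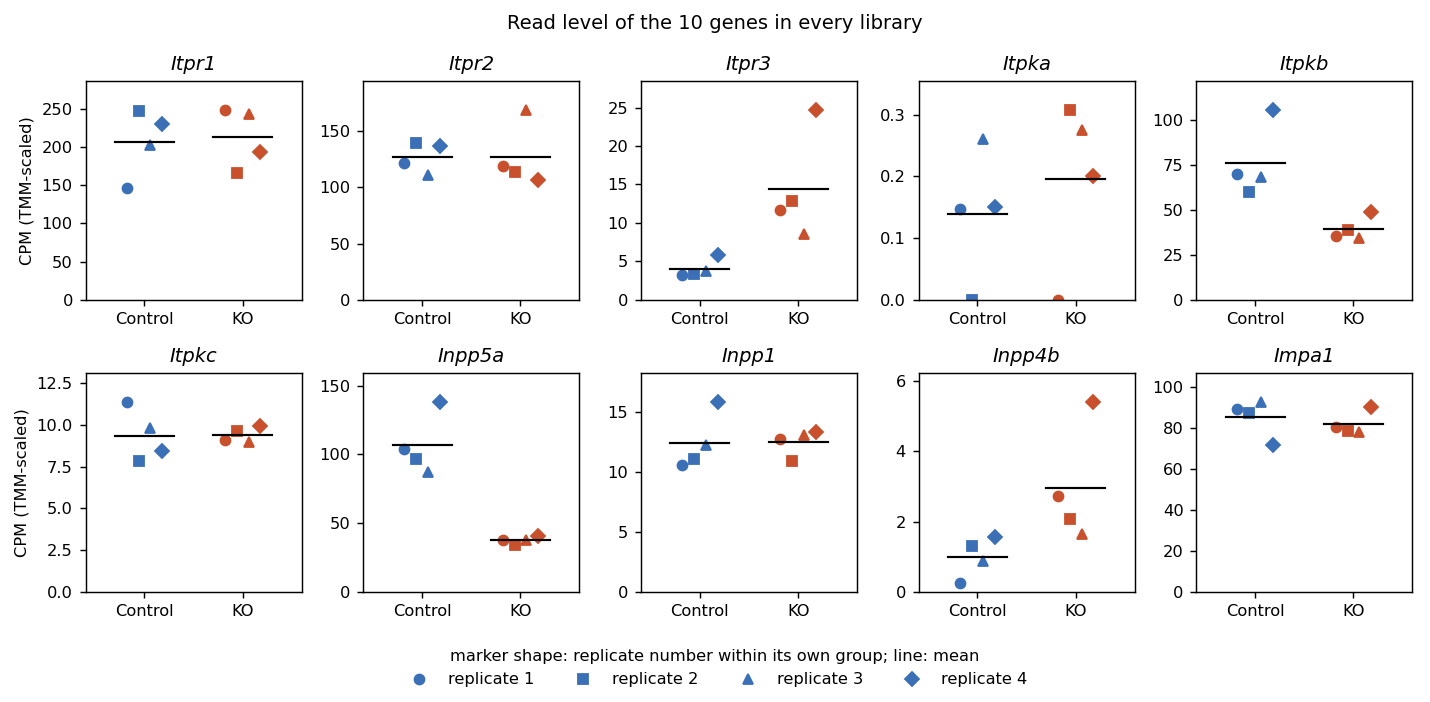
Levels of the 10 genes in the 8 libraries, in CPM on TMM-scaled library sizes, with each gene on its own axis from 0. Each point is a library, its shape the replicate number within its group, and the line is the mean of 4 libraries; Inpp5a, Itpkb, Itpr3 and Inpp4b show no overlap between Control (blue) and KO (red).

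The IP3 kinases add a phosphate to IP3, which takes it away from its receptor and makes IP4, the start of the higher inositol phosphates. Itpkb (chromosome 1, 180330485 to 180424802, plus strand, ENSMUSG00000038855) is the kinase known for its role in lymphocytes and was the most abundant of the 3 here. It stood at 70.0, 59.7, 68.3 and 106 CPM across Control replicates 1 to 4 and at 35.4, 38.7, 34.0 and 48.6 CPM across KO replicates 1 to 4. Every KO library was below every Control library, and KO replicate 4 came nearest to Control. The means were 75.9 ± 20.4 CPM for Control and 39.2 ± 6.58 CPM for KO (SD, n = 4 each). The log2 fold change was -0.95 ± 0.19 (SE), a level 1.94-fold lower in KO.

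The call on Itpkb was less firm than that on Inpp5a. It was lost in 8 of 16 other settings: with library totals as the scaling (log2 fold change -0.80), with an added term for the animal-number series, which groups animals by the leading digits of their numbers (-0.76), and in 6 of the 8 fits without 1 library, where the fold change lay between -1.002 and -0.7535. The fits without Control replicate 2 (-1.06) and without KO replicate 4 (-1.08) kept it. Control replicate 4 is the only library of its animal-number series, so the added term fits that library exactly. The fit without Control replicate 4 gave a like fold change (-0.75), and these 2 settings are not independent. Its exons overlap those of the predicted gene Gm5069 on the opposite strand, which held 9.31% as many counts.

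Itpkc (chromosome 7, 27207172 to 27228661, minus strand), the kinase gene linked to calcium signalling in immune cells, did not pass the threshold. Its level was 11.4, 7.82, 9.82 and 8.42 CPM across Control replicates 1 to 4 and 9.13, 9.64, 8.97 and 9.97 CPM across KO replicates 1 to 4, with the KO libraries inside the Control range. The log2 fold change was 0.01 ± 0.16 (SE), and its sign changed with the setting. It shares 1273 exon bases with BC024978 on the opposite strand, which held 103% as many counts, and reads of that part cannot be assigned without a strand setting. Itpka, the kinase of neuronal dendrites, was near the limit of detection: 11 counts in all 4 Control libraries together and 19 in the KO ones. Control replicate 2 and KO replicate 1 had 0 counts, which at 3 counts allows up to 0.0722 and 0.0617 CPM, for counting error only.

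Per kilobase of exon, Itpkb made up 79.2% ± 4.79 of the summed level of the 3 kinases for Control and 66.2% ± 2.67 for KO (SD, n = 4 each). The share of Itpkc was 20.0% ± 4.58 and 31.9% ± 2.43. Its share lay between 13.5% and 24.2% in the Control libraries and between 28.4% and 33.8% in the KO libraries, without overlap. The level of Itpkc itself overlapped between the groups. Its share depends on the level of Itpkb in the sum, so this restates the fall of Itpkb. The sum over the kinases was 9.11 ± 1.94 CPM per kb for Control and 5.64 ± 0.726 CPM per kb for KO. With the longest transcript in place of all exons as the length, the Itpkb shares were 79.9% and 67.4%.

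Upstream sequences of Inpp5a, Itpkb and Itpr3 are shown because these are the 3 genes past the threshold, so that the stretches before the genes that fell can be set beside that of the gene that rose. RefSeq's promoter table on GRCm38.p6 held 8 of the 10 genes (not Itpr1 and Impa1), and each line gives the 250 bases before the annotated start, 5′ to 3′ on the strand of the gene. Capitals mark matches, on either strand, to GGAAA (the core that NFAT factors, the targets of calcineurin, can bind), TGANTCA (AP-1) and GGGCGG (the GC box); no 2 motifs overlap in these stretches. The stretches lie at chr7:139388859-139389108 (Inpp5a, the start nearest the 5′ end of the gene), chr1:180330226-180330475 (Itpkb) and chr17:27057054-27057303 (Itpr3), all on the plus strand.
Inpp5a: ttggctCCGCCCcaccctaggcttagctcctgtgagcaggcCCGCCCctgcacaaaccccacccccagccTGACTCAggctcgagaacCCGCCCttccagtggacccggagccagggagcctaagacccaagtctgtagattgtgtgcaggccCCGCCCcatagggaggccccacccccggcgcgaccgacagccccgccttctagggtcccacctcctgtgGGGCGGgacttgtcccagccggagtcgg
Itpkb: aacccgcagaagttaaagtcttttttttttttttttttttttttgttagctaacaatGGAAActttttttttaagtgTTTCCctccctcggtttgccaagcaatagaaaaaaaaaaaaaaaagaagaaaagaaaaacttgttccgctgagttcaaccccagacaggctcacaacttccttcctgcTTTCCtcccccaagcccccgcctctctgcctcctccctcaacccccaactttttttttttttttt
Itpr3: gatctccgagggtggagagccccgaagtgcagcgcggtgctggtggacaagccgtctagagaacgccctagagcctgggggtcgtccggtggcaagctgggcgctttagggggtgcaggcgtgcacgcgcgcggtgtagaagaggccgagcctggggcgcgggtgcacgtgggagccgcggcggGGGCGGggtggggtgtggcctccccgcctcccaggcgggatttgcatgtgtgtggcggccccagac

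The upstream stretches of the genes that fell differed in their matches to the 3 motifs and in their share of G and C. That of Inpp5a held 5 GC boxes, 1 AP-1 match and 0 NFAT cores, and 69.2% of its bases were G or C, while the stretch before its second RefSeq start (chr7:139400244-139400493, not shown) held 0 matches to the 3 motifs and 49.6% G and C. That of Itpkb held 3 NFAT cores and 0 of the other motifs, runs of T and A, and 38.4% G and C. Itpr3 had 1 GC box, 0 NFAT cores and 72.0% G and C. Of all 32851 stretches of this length in the table, 55.6% held an NFAT core, 32.7% a GC box and 6.75% an AP-1 match, and the median G and C share was 52.4%. A match is a run of letters and not a binding site, and its absence from this window says only that the letters are not there.

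The IP3 receptors form tetrameric calcium channels from 3 related subunits, which differ in how readily IP3 opens them. Itpr1 (chromosome 6, 108213096 to 108551109, plus strand), the receptor best known from Purkinje cells, stood at 146, 248, 203 and 231 CPM across Control replicates 1 to 4 and at 250, 166, 244 and 194 CPM across KO replicates 1 to 4. Itpr2 (chromosome 6, 146108299 to 146502223, minus strand), the receptor with the highest affinity for IP3, stood at 122, 140, 111 and 137 CPM for Control and at 120, 114, 169 and 107 CPM for KO. The groups overlapped for both genes. The log2 fold changes were 0.04 ± 0.19 for Itpr1 and 0.00 ± 0.16 for Itpr2 (SE), and the sign of both depended on the setting.

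Itpr3 (chromosome 17, 27057304 to 27122223, plus strand, ENSMUSG00000042644), the receptor of many secretory epithelia, was scarce in Control and higher in KO. It was at 3.17, 3.34, 3.76 and 5.81 CPM across Control replicates 1 to 4, from 65 to 139 counts, and at 11.7, 12.9, 8.50 and 24.8 CPM across KO replicates 1 to 4, from 216 to 570 counts. All KO libraries were above all Control libraries, and KO replicate 4 stood well above the other KO libraries. The means were 4.02 ± 1.22 and 14.5 ± 7.11 CPM (SD, n = 4 each), and the log2 fold change was 1.85 ± 0.34 (SE), a level 3.60-fold higher in KO. Without KO replicate 4 the log2 fold change was 1.46 and still past the threshold.

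The call on Itpr3 was lost in 6 of 16 other settings, among them all 4 fits without a Control library, the fit without KO replicate 2, and the fit with an added term for the animal-number series, with log2 fold changes between 1.75 and 2.07. Of the 9 genes of the macrophage and leukocyte list, 4 could be tested, and by edgeR QL 0 passed and 3 lay higher at an unadjusted p under 0.05 (7.79% of all genes did). Ptprc, the pan-leukocyte surface phosphatase, was at 1.02, 2.00, 1.72 and 3.11 CPM across Control replicates 1 to 4 and at 2.51, 6.56, 3.46 and 10.9 CPM across KO replicates 1 to 4 (log2 fold change 1.56 ± 0.49, SE, adjusted p = 0.172). Cd68, a lysosomal protein of macrophages, was at 0.418 to 0.577 CPM over the Controls and at 0.905, 2.62, 0.787 and 3.81 CPM across KO replicates 1 to 4 (1.96 ± 0.54, adjusted p = 0.116). Both had their highest level in KO replicate 4, as had Itpr3, and their lower levels in KO replicates 1 and 3. Csf1r made up most of the list's sum in KO replicate 1, with 72.2 of 76.7 CPM, and its exons share 873 bases with Hmgxb3 on the opposite strand, which held 149% as many counts, so its level is uncertain. The other 6 genes, Adgre1, C1qa, C1qb, Cd3e, Cd79a and Tyrobp, were at 0.571 CPM or less on average in both groups. Of these, Adgre1, C1qa, C1qb and Tyrobp had their lowest KO level in KO replicate 4, at 0.0501 CPM or less. Cd3e was at 0 there, and Cd79a had its highest level there (0.100 CPM). The list thus did not move as 1 in KO replicate 4. The part of macrophages and leukocytes in the level of Itpr3 was not tested.

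Per kilobase of exon, Itpr1 and Itpr2 together made up most receptor transcript in both groups. Itpr1 had 55.1% ± 4.75 of the summed level for Control and 53.1% ± 4.17 for KO, and Itpr2 had 42.7% ± 4.73 and 39.2% ± 4.89 (SD, n = 4 each). The share of Itpr3 was 2.19% ± 0.523 for Control and 7.64% ± 4.19 for KO, with 5.65%, 7.87%, 3.67% and 13.4% across KO replicates 1 to 4. The sum over the receptors was 20.4 ± 3.14 CPM per kb for Control and 21.8 ± 3.24 CPM per kb for KO, so it differed by less than the spread between libraries. The shares depended on the length used. With the longest transcript in place of all exons, Itpr1 had 64.45% for Control and 63.2% for KO. Itpr2 then had 34.2% and 31.9%, and Itpr3 1.39% and 4.94%.

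**Figure D2:**
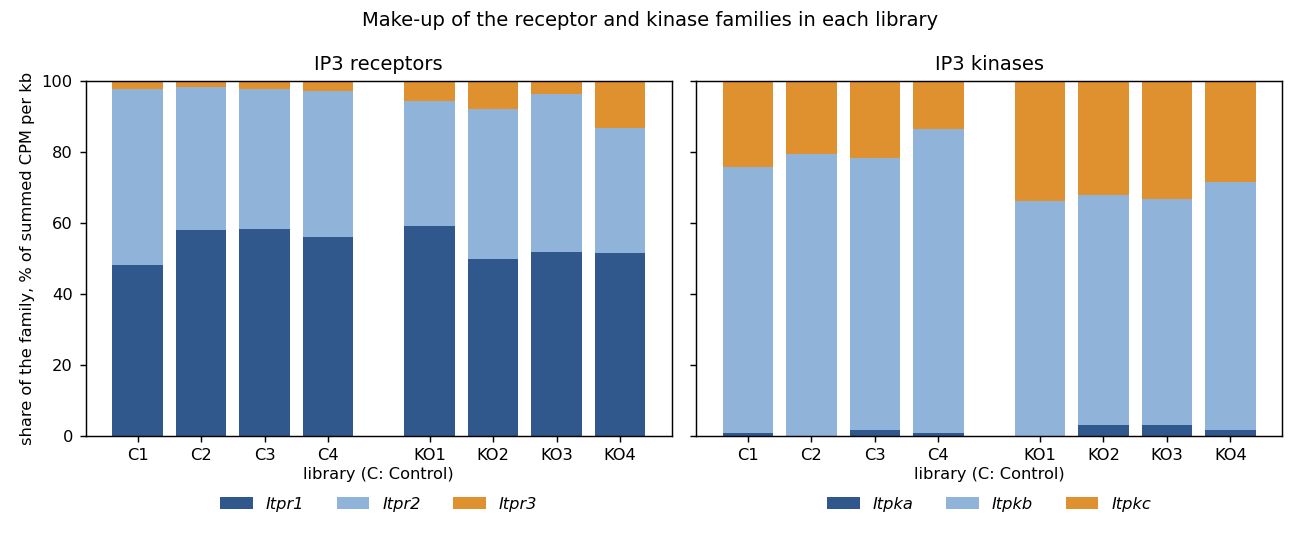
Share of each gene in the summed level per kilobase of its family, in percent, for the 8 libraries (C1 to C4, Control; KO1 to KO4, KO). Itpr3 takes 1.59% to 2.86% of receptor transcript in Control and 3.67% to 13.4% in KO, and Itpkb takes 74.9% to 85.8% of kinase transcript in Control and 63.8% to 69.9% in KO.

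Further down the pathway, the phosphatases that return inositol phosphates to free inositol did not pass the threshold. Inpp1 (chromosome 1, 52785427 to 52817688, minus strand), which takes a phosphate off inositol bisphosphate and is inhibited by lithium, was at 10.53, 11.02, 12.23 and 15.84 CPM across Control replicates 1 to 4 and at 12.7, 10.9, 13.1 and 13.3 CPM across KO replicates 1 to 4. Impa1 (chromosome 3, 10311956 to 10331439, minus strand), the lithium-sensitive enzyme of the last step, was at 88.9, 87.1, 92.7 and 71.7 CPM in Control and at 80.2, 78.2, 77.8 and 90.3 CPM in KO. For both genes the groups overlapped. The log2 fold changes were 0.01 ± 0.16 and -0.06 ± 0.11 (SE), and each changed sign in at least 1 other setting. Impa1 shares 243 exon bases with the predicted gene Gm38303 on the same strand, which held 16.8% as many counts.

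Inpp4b (chromosome 8, 81342556 to 82127914, plus strand) differs from the others in its substrate, since it acts on lipids of the PI3-kinase pathway. It was barely expressed in Control, at 0.244, 1.30, 0.888 and 1.55 CPM from 5, 54, 17 and 31 counts in replicates 1 to 4. In KO replicates 1 to 4 it was at 2.72, 2.08, 1.65 and 5.41 CPM, from 132, 54, 42 and 108 counts. The highest Control library (replicate 4) and the lowest KO library (replicate 3) were only just apart, and KO replicate 4 was again the highest. The log2 fold change of 1.55 ± 0.53 (SE) did not pass the threshold, in this fit or in any of the 15 other settings that tested it, and was 1.10 without KO replicate 4.

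**Figure D3:**
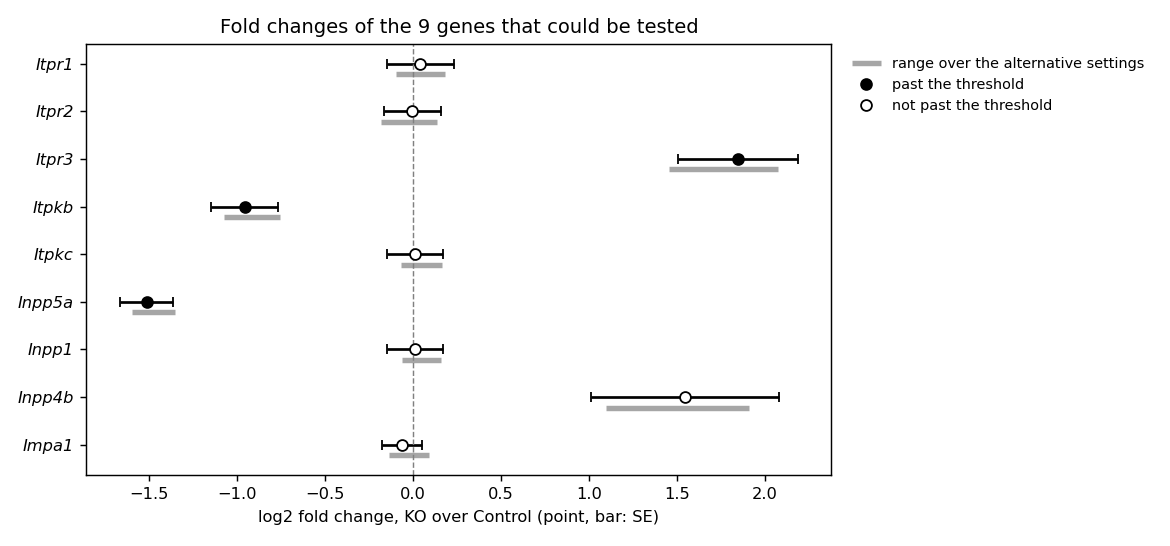
Log2 fold change of KO over Control for the 9 genes that could be tested, with the standard error as bars and, in grey, the range over the other settings. Filled points passed the threshold; the range of Inpp5a, Itpkb, Itpr3 and Inpp4b stays on its side of 0, and that of the other 5 genes spans 0.

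The order of the levels per kilobase of exon was read within each group. In Control it ran from Inpp5a (18.9 ± 3.94 CPM per kb) over Impa1 (15.7 ± 1.70), Itpr1 (11.3 ± 2.42), Itpr2 (8.61 ± 0.916) and Itpkb (7.26 ± 1.95) to Inpp1 (1.92 ± 0.371), Itpkc (1.77 ± 0.303), Itpr3 (0.446 ± 0.135), Itpka (0.0767 ± 0.0590) and Inpp4b (0.0763 ± 0.0438; all SD, n = 4). Each of the first 4 overlapped the next over libraries, and steps without overlap lay between Itpkb and Inpp1, between Itpkc and Itpr3, and between Itpr3 and Itpka. In KO, Inpp5a ranked 4 in every library (6.61 ± 0.441 CPM per kb), below Impa1 (15.01 ± 1.08), Itpr1 (11.65 ± 2.2) and Itpr2 (8.60 ± 1.93). Itpr3 (1.604 ± 0.788) overlapped Itpkc (1.78 ± 0.0873) there, which it did not in Control. With the longest transcript as the length, neighbours in this order changed places, but Inpp5a stayed at the head of the Control order and ranked 3 in KO.

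The libraries within a group were not alike across these genes. Control replicate 4 was the highest Control library in 5 of the 10 genes, Inpp5a, Itpkb, Itpr3, Inpp1 and Inpp4b. KO replicate 4 was the highest KO library in 7 of the 10, the same 5 with Itpkc and Impa1. The spread between KO libraries on the log2(CPM + 1) scale was 0.61 for Itpr3 and 0.56 for Inpp4b, against 0.06 for Itpkc, 0.10 for Impa1 and 0.12 for Inpp1.

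For the 3 genes past the threshold, the protein-coding genes with the most similar profile over the 8 libraries were sought among 11742 others, by the root mean square distance between log2(CPM + 1) values centred on each gene's mean. Nearest to Inpp5a were Phyhip (distance 0.20), Cnnm2 (0.20), which encodes a membrane protein of magnesium handling, and Etv5 (0.21), a transcription factor induced by growth factor signals, with log2 fold changes of -1.48, -1.21 and -1.28. Nearest to Itpkb were the protease gene Adamts3 (0.15), Wnk4 (0.19), a kinase that controls NaCl transport in this segment, and Tbc1d14 (0.19), with fold changes of -1.42, -0.74 and -0.93. Adamts3 was at only 2.25 CPM in Control and 0.836 CPM in KO on average and did not pass the threshold (adjusted p = 0.0684 by edgeR QL). Nearest to Itpr3 were Ccnb2 (0.12), Ect2 (0.13) and Aurka (0.18), a mitotic cyclin, a cytokinesis factor and a mitotic kinase, with fold changes of 2.42, 2.07 and 2.33. The mitotic genes were at 0.768 to 1.77 CPM on average in Control and at 3.85 to 7.41 CPM in KO. At such low levels, as for Adamts3, the 1 added to CPM makes changes smaller on the log2(CPM + 1) scale than the fold changes given. A like profile over 8 libraries of 2 groups is a description and carries no test.

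The genes around the 10 in the pathway were taken from 5 lists of 100 genes, of which 90 had enough counts. Of these 90, 1 passed the threshold (lower in KO), 0 were higher, and 89 did not pass, a share of 1.11% against 2.21% of all genes. Their median log2 fold change was -0.07 against -0.02 for all genes. By edgeR QL, 6 (6.67%) lay higher and 5 (5.56%) lower at an unadjusted p under 0.05, near the 7.79% and 6.15% of all genes tested, which are also the shares to read the counts of each list against.

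The gene that passed was Isyna1 (chromosome 8, 70594373 to 70597290, plus strand), the enzyme that makes inositol phosphate from glucose phosphate and so commits glucose to inositol. It stood at 180, 94.6, 96.0 and 154 CPM across Control replicates 1 to 4 and at 51.2, 38.9, 33.3 and 38.1 CPM across KO replicates 1 to 4, with no overlap between the groups. The log2 fold change was -1.70 ± 0.23 (SE; adjusted p = 0.0102 by edgeR QL), a level 3.25-fold lower in KO. It was between -1.84 and -1.44 over 16 other settings and missed the threshold in the fit without KO replicate 2 (adjusted p = 0.0550), while the other 15 gave adjusted p-values from 6.68e-10 to 0.0428. Uptake of inositol by Slc5a3 (264 ± 51.0 CPM in Control, 346 ± 92.2 CPM in KO, SD, n = 4 each) and its breakdown by Miox, an enzyme best known from the proximal tubule (478 ± 206 and 309 ± 113 CPM), did not pass. Of the 10913 exon bases of Slc5a3, 159 are shared with Mrps6 on the same strand, which held 58.95% as many counts. It also shares 159 with the predicted gene Gm49711 on that strand, which held 12.7% as many. Proximal tubule markers (8 genes) summed to 928 to 3626 CPM for Control and 1031 to 2271 CPM for KO.

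The phospholipase C list holds the enzymes that release IP3, the related genes Plcl1 and Plcl2, and the G proteins that drive the enzymes. Of its 15 tested genes, 0 passed by edgeR QL, and 3 lay higher and 0 lower at an unadjusted p under 0.05 (all genes, 7.79% and 6.15%). The smallest p-values belonged to Plcd4 (28.4 ± 0.493 CPM in Control, 39.7 ± 6.35 CPM in KO, log2 fold change 0.49 ± 0.13, SE, adjusted p = 0.0957) and Plch1 (1.36 ± 0.325 and 3.97 ± 2.16 CPM, 1.53 ± 0.41, adjusted p = 0.104). In both, every KO library was above every Control library. DESeq2 called both higher and limma-voom called Plcd4. The exons of Plcd4 share 2101 bases with Zfp142 on the opposite strand, which held 50.4% as many counts, so its level is uncertain. The most abundant per kilobase in Control were the Gq family subunit gene Gna11, at 82.1 ± 12.4 and 98.1 ± 7.50 CPM, and Plcg2, at 28.3 ± 6.80 and 28.0 ± 4.19 CPM (SD, n = 4 each). In KO, Gnaq (6.603 CPM per kb) was level with Plcg2 (6.517 CPM per kb).

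Of the 24 tested other enzymes of inositol phosphates, 0 passed by edgeR QL, with 2 (8.33%) higher and 1 (4.17%) lower at an unadjusted p under 0.05, again near the shares of all genes. The smallest p-value belonged to Nudt11, a pyrophosphatase of inositol pyrophosphates, at 6.70 ± 1.78 CPM for Control and 3.52 ± 0.823 CPM for KO (log2 fold change -0.92 ± 0.25, SE, adjusted p = 0.118), called by DESeq2 alone. It has a near-identical copy, Nudt10, so its count is uncertain. Ppip5k1, a kinase that makes inositol pyrophosphates, was at 86.9 ± 6.27 and 107 ± 11.2 CPM (adjusted p = 0.276). Nudt4 (2058 ± 225 and 1784 ± 293 CPM) and Bpnt1 (267 ± 23.4 and 268 ± 10.3 CPM) had the highest levels of this list (SD, n = 4 each).

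Of 19 tested partners of the IP3 receptors and 17 genes of calcium store filling, 0 passed by edgeR QL, with 1 higher and 1 lower, and 0 and 1, at an unadjusted p under 0.05, each a share at or below that of all genes. The fold change was below 0 in 68.4% of the partners and 82.4% of the store genes, against 52.9% of all genes. Their median log2 fold changes were -0.12 and -0.22, against -0.02 for all genes. These differences were not tested. Itpripl2 was at 5.26 ± 0.936 and 8.30 ± 1.91 CPM (adjusted p = 0.207), and Itprip, whose product binds IP3 receptors, at 5.32 ± 1.21 and 3.36 ± 1.06 CPM (adjusted p = 0.313). The ryanodine receptor gene Ryr2, another store calcium channel, was at 3.50 ± 1.13 and 1.52 ± 1.02 CPM (log2 fold change -1.20 ± 0.45, SE, adjusted p = 0.263) and was called lower by limma-voom. Tmco1, a calcium leak channel, was at 169 ± 36.3 and 138 ± 4.12 CPM (adjusted p = 0.410). The abundant genes Vdac1, Hspa9, Tmbim6 and Calr had log2 fold changes of -0.18, -0.27, -0.20 and -0.04, and the store calcium pump gene Atp2a2 had 0.19.

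**Figure D4:**
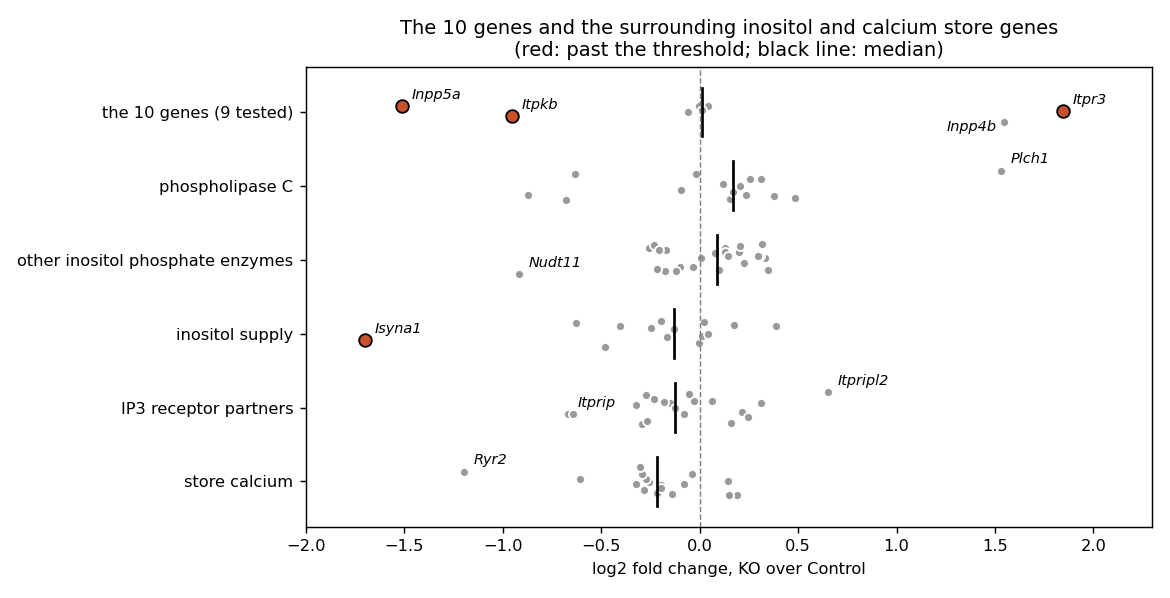
Log2 fold change of KO over Control for each tested gene, 1 row of points per list, with red points past the threshold and a black line at the median of the list. Isyna1, at -1.70, is the 1 red point among the 90 tested genes outside the 10, against Inpp5a (-1.51), Itpkb (-0.95) and Itpr3 (1.85) among the 9 tested genes described here.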

How the data were processed

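The authors deposited unnormalized whole-number counts of reads for each Ensembl identifier, with a separate file for every library. The tools named in the submitters' processing notes are STAR 2.7.4a, fastp 0.20.0 and bcl2fastq 2.20, with build GRCm38.p6. Counting program, annotation release and strandedness: not given in the sources used here.

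Names, coordinates and exon lengths came from GENCODE vM21 (GRCm38), which named 42347 of 42416 identifiers. Older symbols were matched through RefSeq. Counts were filtered with filterByExpr, scaled by TMM and compared with edgeR 4.0.16 (quasi-likelihood test, two-sided, R 4.3.3) with genotype as the only factor and Benjamini-Hochberg adjustment over all genes. Standard errors are the fold change over the square root of F. The test was checked on simulated counts. The 10 genes, the lists and the motifs were chosen with earlier results of these data known. From each list were named up to 3 genes past the threshold by smallest p (2 genes by p where 0 passed) and the 2 highest per kilobase; Slc5a3 and Atp2a2 were added after their values were seen. Alternatives used DESeq2 1.42.0, limma 3.58.1, other scalings, filters, added terms and fits without 1 library. Libraries of a group differed by far more than counting noise.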

Additional observations from a re-analysis of the deposited data

How the results depend on the processing

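Under the 16 other settings, the count of 2 genes lower in KO became 1 with library totals as the scaling and 1 with an added term for the animal-number series, and lay between 1 and 2 in the fits without 1 library. The count of 1 gene higher became 0 with the term for the animal number and lay between 0 and 1 without 1 library. Of the 90 pathway genes, DESeq2 called 2 higher and 3 lower, limma-voom 1 higher and 2 lower, and the fits without 1 library 0 to 1 higher and 0 to 2 lower, against 0 and 1. Over all genes, calls numbered 316, and 749 by DESeq2, 519 by limma-voom, 142 with at least 5 CPM in 4 libraries, 199 with an added file-name term, 29 with that for the animal number, and 36 to 388 without 1 library. The animal-number term fits Control replicate 4 exactly, since that library is alone in its series, and the fit without that library called 53 genes. With library totals the median over all genes went from -0.02 to 0.13, and the share of higher calls went from 60.4% to 72.9%.

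The 5 genes with a fold change near 0 changed sign in some settings. With at least 5 CPM in 4 libraries, Itpkc had -0.00026 and Inpp1 -0.0020. With the term for the animal number, Itpkc had -0.016 and Itpr2 0.026. By limma-voom, Itpr1 had -0.097 and Inpp1 -0.0024. With library totals, Itpr2 had 0.14 and Impa1 0.092. Without 1 library, Itpkc lay between -0.069 and 0.11, Itpr1 between -0.097 and 0.15, Itpr2 between -0.18 and 0.073, and Inpp1 between -0.060 and 0.15. The causes were not tested. Each fit without a library also has 1 library fewer. Replicate numbers only name the libraries, so no paired analysis was possible because the labels give no pairing. Low counts limit Itpka and Inpp4b.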
